A study of Mus musculus with 6 samples.

Results

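The genes that write, maintain and oxidise DNA methylation were compared in sorted mouse PreGMs, which are myeloid progenitors of the bone marrow that precede the granulocyte-macrophage stage. Expression was measured on Affymetrix gene arrays, with 3 arrays labelled Cebpa flox/flox;Mx1Cre and 3 labelled Cebpa flox/flox. The set holds 10 genes, Dnmt1, Dnmt3a, Dnmt3b, Uhrf1, Uhrf2, Tet1, Tet2, Tet3, Idh1 and Idh2, chosen by name, out of 19937 genes measured. Every probe set annotated to exactly 1 of these symbols was taken, which gave 13 of the 34760 probe sets. All mice were female C57BL/6 animals carrying loxP-flanked Cebpa alleles, and all had been injected with pIC (polyinosinic-polycytidylic acid), which induces interferon, 18 days before the marrow was taken. The groups differ by the Mx1Cre transgene, in which the interferon-inducible Mx1 promoter drives the Cre recombinase, in haematopoietic cells and in other cells that respond to interferon. The sort gate took lineage-negative, Sca1-negative, Kit-positive cells that lacked CD150, CD41, FcγRII and endoglin. The share of sorted cells in which Cebpa was recombined was not analysed here.

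In mammals, DNMT3A and DNMT3B methylate CpG sites that carried no methyl group before, and DNMT1 copies the mark onto the new strand after replication. UHRF1 recognises hemimethylated DNA and brings DNMT1 to it, whereas its paralogue UHRF2 cannot replace it in that task. TET1, TET2 and TET3 oxidise 5-methylcytosine and need 2-oxoglutarate, which the isocitrate dehydrogenases IDH1 (cytosol) and IDH2 (mitochondria) make. DNMT3A, TET2, IDH1 and IDH2 are known from human blood cancers, in which they are recurrently mutated.

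Cebpa, the gene named in the genotype labels, ran against them. It read 8.71, 9.31 and 8.98 in the arrays labelled Mx1Cre, against 6.93, 6.71 and 6.85 in those labelled flox/flox (log2 RMA values). The limma difference was 2.17 log2 units (adjusted p = 2.65e-05), and the position of the probes relative to the deleted part was not analysed here. All directions below are those of the labels as deposited, written as "arrays labelled Mx1Cre" and "arrays labelled flox/flox", and would turn if the labels were exchanged. Of 14 granulocyte and monocyte markers 11 were higher and 0 lower in the arrays labelled Mx1Cre, between 0.48 (Mpo) and 3.83 log2 units (Ly86), with a mean log2 value of 8.17 to 8.60 there and of 6.49 to 6.73 in the arrays labelled flox/flox. Of 10 T and NK cell markers 2 were lower (Gzmb and Trat1, -4.45 and -2.56) and 0 higher, and 1 had a positive difference. The list means were 5.81 to 6.29 in the arrays labelled Mx1Cre and 6.89 to 7.002 in those labelled flox/flox. Cd3e, which defines T cells and was picked after its values were seen, differed by -0.0034 log2 units. It averaged 6.52 in both groups, below the median of gene means, 6.64. The other CD3 genes Cd3d and Cd3g differed by -0.04 and -0.45, and neither passed. Of 7 erythroid markers 1 was lower (Car2), of 5 megakaryocyte markers 1 (Ppbp) and of 7 B cell markers 1 (Il7r), and 0 were higher. Yet the means of these lists were lower in the arrays labelled Mx1Cre without overlap. They were 8.28 to 8.51 against 8.62 to 8.91 (erythroid), 6.64 to 6.73 against 7.13 to 7.14 (megakaryocyte) and 5.98 to 6.17 against 6.30 to 6.41 (B cell). Of 6 mast cell and basophil markers 2 were higher (Mcpt8 and Ms4a2) and 2 lower (Cpa3 and Fcer1a). Over all genes 2.63% passed as higher and 2.28% as lower. Of 6 measured genes of the sort gate, Fcgr2b was higher (0.43) and Fcgr3 lower (-1.04 log2 units). Kit, which the gate selects and which did not pass, was bright on every array (10.52 to 10.69 in the arrays labelled Mx1Cre and 10.36 to 10.53 in those labelled flox/flox). The part of these other genes in the results below was not tested. In sorted populations measured in bulk, fewer cells of a type and less RNA per cell cannot be told apart.

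The start-site regions of the 2 genes that rose are shown with those of 2 genes of the opposite sign, because replication genes often carry E2F sites near their start. The windows are RefSeq's on GRCm38.p6, 250 bases before to 50 after an annotated start, on the gene's strand from 5′ to 3′. Capitals mark the E2F-type letters TTTCCCGC, TTTCGCGC, TTTGCCGC or TTTGGCGC on either strand. The windows are chr17:56304063-56304362 (plus strand) for Uhrf1, chr9:20952574-20952873 (minus strand) for Dnmt1, chr19:30030263-30030562 (plus strand) for Uhrf2 and chr12:3806730-3807029 (plus strand) for Dnmt3a.
Uhrf1: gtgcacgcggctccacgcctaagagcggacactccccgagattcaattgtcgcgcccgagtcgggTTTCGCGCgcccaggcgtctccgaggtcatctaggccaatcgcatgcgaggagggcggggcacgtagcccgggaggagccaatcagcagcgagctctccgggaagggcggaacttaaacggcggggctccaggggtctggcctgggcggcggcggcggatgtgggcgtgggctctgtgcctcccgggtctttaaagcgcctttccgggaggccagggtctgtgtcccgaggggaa
Dnmt1: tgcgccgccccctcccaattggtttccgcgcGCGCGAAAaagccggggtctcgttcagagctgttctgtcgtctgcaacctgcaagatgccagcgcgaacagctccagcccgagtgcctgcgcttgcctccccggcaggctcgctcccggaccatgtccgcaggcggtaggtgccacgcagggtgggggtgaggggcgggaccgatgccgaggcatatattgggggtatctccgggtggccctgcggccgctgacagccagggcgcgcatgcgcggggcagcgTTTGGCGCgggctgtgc
Uhrf2: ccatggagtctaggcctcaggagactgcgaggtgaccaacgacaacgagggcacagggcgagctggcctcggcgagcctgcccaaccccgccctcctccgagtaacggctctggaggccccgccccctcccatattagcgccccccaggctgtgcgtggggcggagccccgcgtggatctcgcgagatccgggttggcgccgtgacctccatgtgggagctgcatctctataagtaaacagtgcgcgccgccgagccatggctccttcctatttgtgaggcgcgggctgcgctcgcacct
Dnmt3a: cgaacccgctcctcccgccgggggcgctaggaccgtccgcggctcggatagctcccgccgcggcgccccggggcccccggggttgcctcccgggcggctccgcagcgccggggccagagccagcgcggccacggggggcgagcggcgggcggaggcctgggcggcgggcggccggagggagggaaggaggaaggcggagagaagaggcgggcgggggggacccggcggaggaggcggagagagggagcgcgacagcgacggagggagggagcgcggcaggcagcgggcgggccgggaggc
The Uhrf1 window holds 1 match, whose first base is at position -185 from the start site. The Dnmt1 window holds 2, at positions -219 and 33. RefSeq gave 16 windows for the 10 genes, since Dnmt1 and Dnmt3a have 3 and Uhrf1 and Idh1 have 2. Of the 16, the 2 printed for Uhrf1 and Dnmt1 held an E2F-type match, against 2.26% of all 32851 windows in the table and 8 of the 23 windows of S phase genes. Each of the E2F-type words contains CpG, and the share over all windows was not matched for CpG content. The letters CCAAT stood in 7 of the 16 windows and in 37.4% of all windows, and CACGTG in 1 of 16 and 7.15%. The C/EBP-type letters TTGCNNAA stood in 0 of 16 and in 10.8% of all windows. No match says only that these letters are not in the window, and a match is not a shown binding site. For Uhrf1 and Dnmt1 the window printed is the one that holds a match, picked after the search, and for Dnmt3a it is 1 of 3 windows without a match. The printed Uhrf1 and Dnmt1 windows hold 33 CpG dinucleotides each, whereas the other window of Uhrf1 holds 12 and the other windows of Dnmt1 hold 2 and 12, all without an E2F-type match. Uhrf2's window holds 28 CpG dinucleotides and those of Dnmt3a hold 46 (printed), 47 and 18, where the median over all windows is 7.

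The maintenance methylation genes Uhrf1 and Dnmt1 were higher in the arrays labelled Mx1Cre, and the other members did not pass the test. Of the 10 genes 2 rose, Uhrf1 and Dnmt1, 0 fell and 8 did not pass (limma, adjusted p under 0.05 over all 19937 genes). Over all genes 4.91% passed, 2.63% higher and 2.28% lower. At an unadjusted p under 0.05 were 5 of the 10 and 3276 of all genes. At an adjusted p under 0.1, 4 of the 10 passed, Dnmt3a and Uhrf2 being the added genes, beside 7.35% of all genes, and at 0.01 Uhrf1 alone passed, beside 1.95%. The groups did not overlap for 5 of the 10 genes, 2 higher and 3 lower, where 21.6% of all genes did not overlap (10.5% higher and 11% lower). The median difference of the 10 was 0.09 log2 units, beside -0.01 over all genes. Tet3 apart, each had a mean level above the upper quartile of gene means, 8.07, so these transcripts were not at the dim end of the arrays.

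**Figure D1:**
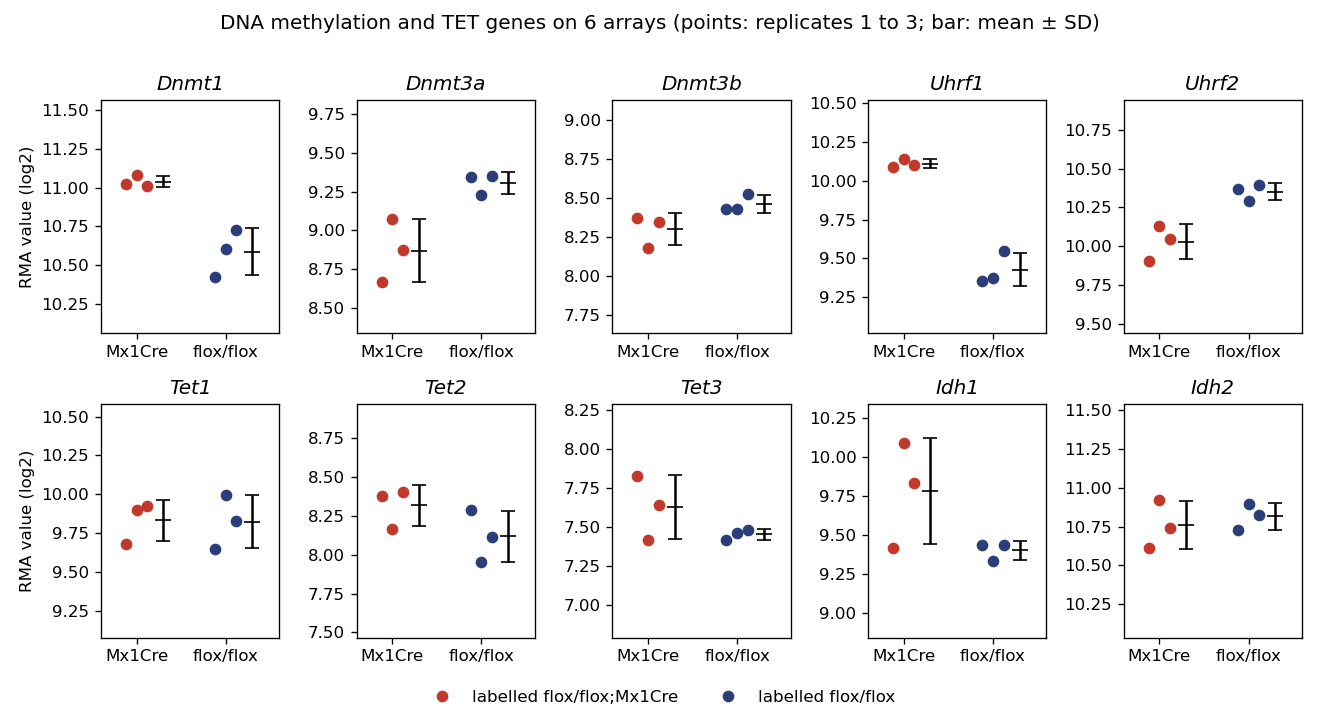
RMA values (log2, vertical axis) of the 10 genes on each array, with the arrays labelled flox/flox;Mx1Cre in red on the left and those labelled flox/flox in blue on the right of each panel. Points are single arrays and bars are the mean ± SD (n = 3). All panels span the same range of log2 units. Uhrf1 and Dnmt1 lie higher in red without overlap, and Dnmt3a, Dnmt3b and Uhrf2 lie lower in red without overlap.

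Uhrf1, the reader of hemimethylated DNA, rose the most of the set. Its probe set (10446074) read 10.09, 10.14 and 10.10 in the arrays labelled Mx1Cre, against 9.36, 9.38 and 9.55 in those labelled flox/flox. The groups did not overlap, and the SD was 0.026 in the arrays labelled Mx1Cre and 0.11 in those labelled flox/flox (n = 3 each). The groups differed by 1.61-fold, 0.68 ± 0.089 log2 units (SE), with a 95% interval of 0.48 to 0.88 and a limma adjusted p of 0.00197. It passed with any 1 array left out (limma adjusted p 0.00583 to 0.0109) and when all probe sets were fitted together (0.0284), where 0.869% of the 34760 probe sets passed.

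Dnmt1, the maintenance methyltransferase, rose less. The probe set (10591369) read 11.02, 11.08 and 11.01 in the arrays labelled Mx1Cre, against 10.43, 10.61 and 10.73 in those labelled flox/flox. The groups did not overlap, and the spread was again small in the arrays labelled Mx1Cre (SD 0.036, against 0.15 in those labelled flox/flox, n = 3 each). The groups differed by 1.37-fold, 0.45 ± 0.098 log2 units (SE), with a 95% interval of 0.23 to 0.67 and a limma adjusted p of 0.0288. The call rested on the full set of arrays. The limma adjusted p was 0.0587, 0.0852 and 0.0889 without Mx1Cre replicates 1, 2 and 3, then 0.1001 and 0.0686 without flox/flox replicates 1 and 2, and 0.0372 without flox/flox replicate 3. It was 0.134 with all probe sets fitted together, and the difference stayed between 0.37 and 0.52 throughout.

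Uhrf2, which shares Uhrf1's domain layout, was of the opposite sign and did not pass. The probe set (10462454) read 9.91, 10.13 and 10.05 in the arrays labelled Mx1Cre, against 10.37, 10.29 and 10.40 in those labelled flox/flox. Each array labelled Mx1Cre was below each labelled flox/flox, by a mean of -0.32 ± 0.092 log2 units (SE, 95% interval -0.53 to -0.12, limma adjusted p = 0.0854). The 2 paralogues were set against each other within each array. Uhrf1 minus Uhrf2 was 0.081 ± 0.089 in the arrays labelled Mx1Cre and -0.92 ± 0.083 in those labelled flox/flox (SD, n = 3 each), a shift of 1.01 log2 units. The exact two-sided permutation p was 0.1, the smallest that 3 against 3 arrays allow, and 0.3 after adjustment over 6 such contrasts. That p of 0.1 was fixed in advance, since Uhrf1 was already higher and Uhrf2 lower without overlap. The sizes of these within-array values also depend on the probes, so only their shift between labels is a measurement of expression.

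The de novo methyltransferase Dnmt3a, which in mouse restrains self-renewal of blood stem cells, lay just outside the threshold. Its probe set (10394209) read 8.67, 9.07 and 8.87 in the arrays labelled Mx1Cre, against 9.34, 9.23 and 9.35 in those labelled flox/flox. The groups did not overlap. The spread was wider in the arrays labelled Mx1Cre (SD 0.20, against 0.071 in those labelled flox/flox, n = 3 each), where replicate 1 was lowest. The difference was -0.44 ± 0.11 log2 units (SE, 95% interval -0.68 to -0.19, limma adjusted p = 0.0557), as large as that of Dnmt1 but with a wider error. It passed without Mx1Cre replicate 2 (-0.54, limma adjusted p = 0.0307), and in 5 further alternatives given in the closing section. Over the 17 alternatives its adjusted p ran from 0.0250 to 0.475 and its sign was negative in each.

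Dnmt3b, the other de novo enzyme, differed little. The probe set (10477325) read 8.37, 8.18 and 8.34 in the arrays labelled Mx1Cre, against 8.43, 8.43 and 8.53 in those labelled flox/flox. The groups just missed each other, and the difference of -0.16 ± 0.091 log2 units (SE, 95% interval -0.36 to 0.04) did not pass (limma adjusted p = 0.445). Dnmt3a minus Dnmt3b was 0.57 ± 0.30 in the arrays labelled Mx1Cre and 0.84 ± 0.063 in those labelled flox/flox (SD, n = 3 each), and the groups overlapped (exact permutation p = 0.3, adjusted 0.6). Unequal change of the 2 de novo enzymes was therefore not shown.

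None of the 3 TET dioxygenase genes passed, and the groups overlapped for each. Tet1 read 9.68, 9.90 and 9.92 in the arrays labelled Mx1Cre, against 9.65, 9.998 and 9.83 in those labelled flox/flox, by its brightest probe set (10369702). The difference was 0.01 log2 units with a 95% interval of -0.24 to 0.26 (limma adjusted p = 0.988). The other 2 probe sets of Tet1 differed by -0.04 (10369688) and 0.05 (10369690), so that the 3 straddled 0. Tet2, which limits myeloid expansion in mouse, read 8.38, 8.17 and 8.40 in the arrays labelled Mx1Cre, against 8.28, 7.96 and 8.11 in those labelled flox/flox (probe set 10502284). Its difference was 0.20 log2 units (95% interval -0.05 to 0.45, limma adjusted p = 0.438), and 2 of the 3 arrays labelled Mx1Cre lay above each of the others. Tet3 read 7.83, 7.41 and 7.64 in the arrays labelled Mx1Cre, against 7.42, 7.46 and 7.48 in those labelled flox/flox (10545692). The difference of 0.18 log2 units had a 95% interval of -0.07 to 0.42 (limma adjusted p = 0.514), and the second probe set of Tet3 (10545682) gave 0.22. The intervals leave room for changes of up to 0.45 log2 units, so a small change of Tet2 or Tet3 was not detectable with 6 arrays. The shifts of Tet2 minus Tet1, Tet3 minus Tet1 and Tet3 minus Tet2 were 0.19, 0.17 and -0.02 log2 units (exact permutation p = 0.5, 0.5 and 0.9, adjusted 0.6, 0.6 and 0.9).

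Of the isocitrate dehydrogenase genes, the cytosolic Idh1 was higher on 2 of the 3 arrays labelled Mx1Cre but did not pass. The probe set (10355214) read 9.42, 10.09 and 9.83 in the arrays labelled Mx1Cre, against 9.43, 9.33 and 9.43 in those labelled flox/flox. Mx1Cre replicate 1 sat among the flox/flox values, and the SD was 0.34 in the arrays labelled Mx1Cre, against 0.058 in those labelled flox/flox (n = 3 each). The difference was 0.38 ± 0.15 log2 units (SE, 95% interval 0.05 to 0.71, limma adjusted p = 0.223). Without Mx1Cre replicate 1 it was 0.56, with a limma adjusted p of 0.0223. The mitochondrial Idh2 (10564857) read 10.61, 10.92 and 10.74 in the arrays labelled Mx1Cre, against 10.73, 10.90 and 10.82 in those labelled flox/flox. It differed by -0.06 log2 units (95% interval -0.29 to 0.17, limma adjusted p = 0.872). Within arrays, Idh1 minus Idh2 was -0.98 ± 0.19 in the arrays labelled Mx1Cre and -1.42 ± 0.14 in those labelled flox/flox (SD, n = 3 each), a shift of 0.44. These did not overlap (exact permutation p = 0.1, adjusted 0.3).

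**Figure D2:**
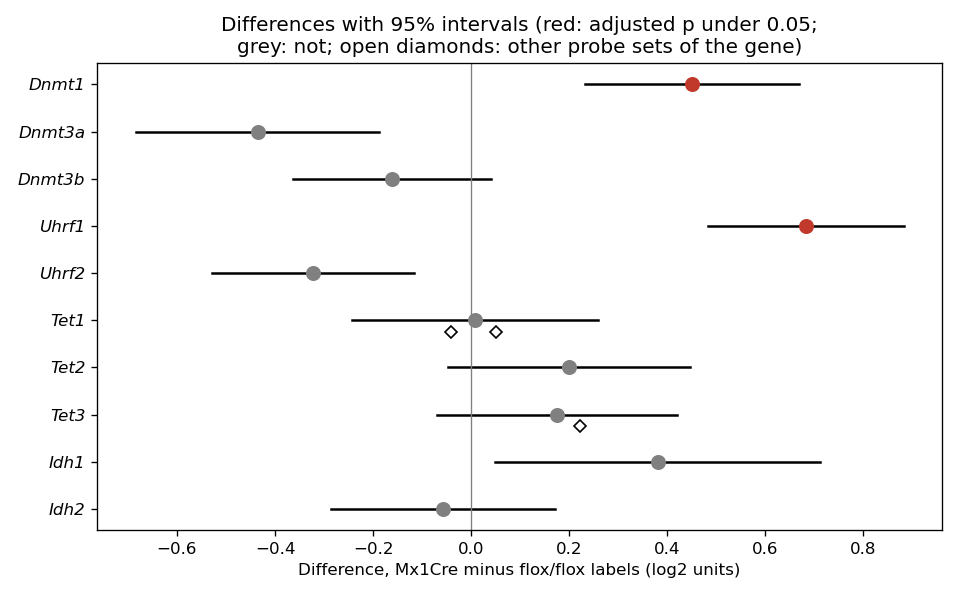
Difference of each gene between the arrays labelled Mx1Cre and those labelled flox/flox (log2 units, horizontal axis), with 95% limma intervals from 3 arrays per label. Red points passed an adjusted p of 0.05 and grey points did not, and open diamonds are the other probe sets of Tet1 and Tet3. The intervals of Dnmt3a, Uhrf2 and Idh1 leave out 0 although their adjusted p did not pass.

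Uhrf1 and Dnmt1 are transcribed mainly in cells entering and passing S phase, so replication genes are given beside them. Of 27 S phase genes 8 passed as higher and 0 as lower, where 2.63% of all genes passed as higher and 2.28% as lower. The median difference was 0.41 log2 units, and 26 of the 27 had a positive difference, as had 9294 of all 19937 genes. Among those that rose were Pole, a replicative polymerase subunit (0.81), Cdc6 (0.65) and Gins2 (0.63), which act at replication origins. Pola1 (0.48), Mcm3 (0.45) and Ccne2 (0.44) rose too, and Rfc1 (0.39) and Mcm5 (0.55) did not pass (limma adjusted p 0.0640 and 0.0688). The mean log2 value of the list was 9.41, 9.55 and 9.51 in the arrays labelled Mx1Cre, against 8.87, 9.25 and 9.23 in those labelled flox/flox, where replicate 1 stood apart on the low side. The count of 8 fell to between 0 and 5 when 1 array was left out (2, 1 and 0 without Mx1Cre replicates 1, 2 and 3, then 1, 5 and 2 without flox/flox replicates 1, 2 and 3). Of 18 mitosis genes Aurkb (0.84) and Cenpf (0.60) rose and 0 fell, with a median of 0.56, and all 18 had a positive difference. The count of mitosis genes that passed was 0 without any 1 of the Mx1Cre replicates. It was 1, 4 and 1 without flox/flox replicates 1, 2 and 3.

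Each member was then set against the mean of the S phase list on its own array, a comparison chosen after seeing the data. Dnmt1 shifted by 0.07 log2 units relative to that list, and its groups overlapped (exact two-sided permutation p = 0.4). Uhrf1 shifted by 0.31 and Dnmt3a, Uhrf2 and Dnmt3b by -0.81, -0.70 and -0.54, without overlap (exact permutation p = 0.1 for each, the smallest possible). For Dnmt3a, Uhrf2 and Dnmt3b that outcome was fixed in advance. Their own groups were already lower, and the list mean higher, without overlap. Tet1 and Idh2 also did not overlap on that scale, at -0.37 and -0.43 (p = 0.1 for each by the same exact test), because the list itself was higher by 0.38. Idh1 shifted by 0.0043 (exact permutation p = 1). Dnmt1 thus differed between labels by about as much as the mean of the replication genes. The part of S phase content in the differences of the members was not tested.

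**Figure D3:**
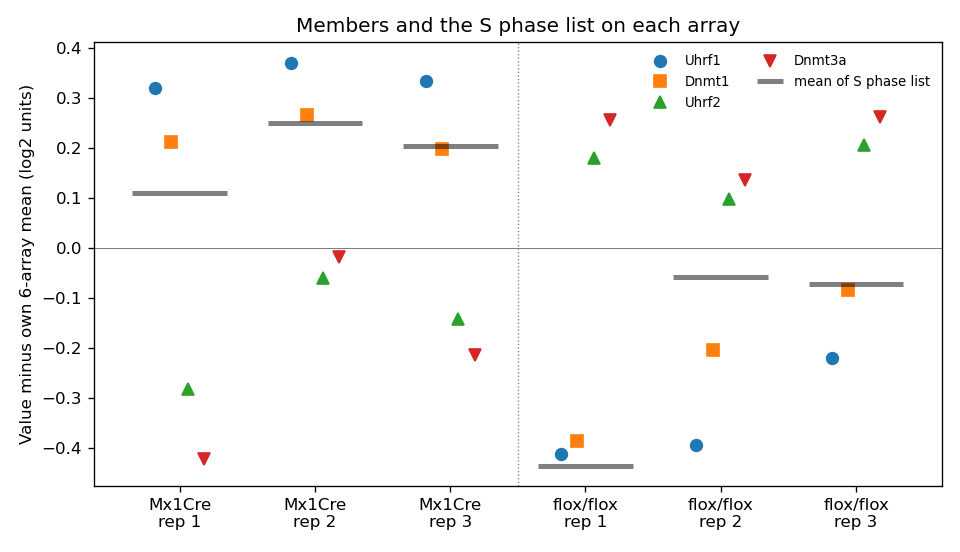
Values of Uhrf1, Dnmt1, Uhrf2 and Dnmt3a on each array, each minus the gene's own mean over the 6 arrays (log2 units, vertical axis), with the mean of the 27 S phase genes as a grey bar. The arrays labelled Mx1Cre stand left of the dotted line and those labelled flox/flox right of it. Uhrf1 and Dnmt1 are above 0 on each array labelled Mx1Cre and below it on each labelled flox/flox, as is the S phase mean, and Uhrf2 and Dnmt3a are the reverse.

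Among 9 partners of maintenance methylation, Cdca7 and Hells rose and 0 fell, where 2.63% of all genes passed as higher and 2.28% as lower. The products of Cdca7 and Hells form a nucleosome remodeller that aids DNA methylation. Cdca7 read 10.67, 10.65 and 10.70 in the arrays labelled Mx1Cre, against 9.996, 9.94 and 10.13 in those labelled flox/flox, a difference of 0.65 ± 0.088 log2 units (SE, limma adjusted p = 0.00233). Hells read 10.78, 10.66 and 10.68 in the arrays labelled Mx1Cre, against 9.94, 10.33 and 10.28 in those labelled flox/flox (0.52 ± 0.11, SE, limma adjusted p = 0.0284). Both were therefore higher on each array labelled Mx1Cre than on any other. The DNA ligase gene Lig1, whose product UHRF1 binds, did not pass (0.54, limma adjusted p = 0.0873), nor did Hdac1 (-0.14). The median difference of the 9 was -0.0016 log2 units, and of the other genes Pcna and Usp7, picked after their values were seen, differed by -0.04 and -0.0016. Cdca7 passed alone without any 1 of the Mx1Cre replicates and without flox/flox replicate 1 or 3, and both passed without flox/flox replicate 2.

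Of 8 measured methyl-CpG readers, which bind methylated DNA, 0 rose and 0 fell (limma), and 0 had an unadjusted p under 0.05 by limma or with each gene's own variance. The smallest p were those of Zbtb33 (-0.24, limma adjusted p = 0.428) and Mbd3 (0.13, 0.547), and the median was -0.03. Of 14 genes that target methylation or carry a CXXC domain, Cxxc5 alone passed. Over all genes 4.91% passed, so this count too is near the background share. Cxxc5, which encodes a CpG-binding protein that lowers TET2 protein in mouse cells, fell by 0.43 log2 units (limma adjusted p = 0.0344). It read 7.998, 8.25 and 8.07 in the arrays labelled Mx1Cre, against 8.47, 8.64 and 8.52 in those labelled flox/flox. The call was lost without any 1 array other than Mx1Cre replicate 2. Zfp57 and Dppa3 did not pass (-0.26 and -0.21).

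Of 14 measured base excision and demethylation genes 1 rose and 1 fell, where 2.63% of all genes passed as higher and 2.28% as lower. Gadd45a, a stress-induced gene whose product has been linked to active demethylation, read 8.07, 8.27 and 8.13 in the arrays labelled Mx1Cre, against 8.85, 8.98 and 8.91 in those labelled flox/flox. It fell 1.69-fold (-0.76 ± 0.092 log2 units, SE, limma adjusted p = 0.00124) and is also a gene of growth arrest. Parp1, the strand-break sensor, rose by 0.40 log2 units (limma adjusted p = 0.0301). Neil3 and Apobec1 did not pass (0.76 and 0.31, limma adjusted p 0.104 and 0.141). Gadd45a passed alone without Mx1Cre replicate 2 or 3 or flox/flox replicate 1 or 3, and with Neil3 in place of Parp1 without flox/flox replicate 2.

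Of 16 measured methyl donor and folate genes 3 rose and 1 fell, where 2.63% of all genes passed as higher and 2.28% as lower. The serine hydroxymethyltransferase genes both rose, mitochondrial Shmt2 by 0.88 ± 0.12 and cytosolic Shmt1 by 0.59 ± 0.13 log2 units (SE, limma adjusted p 0.00266 and 0.0282). Shmt2 read 9.20, 9.23 and 9.34 in the arrays labelled Mx1Cre, against 8.48, 8.11 and 8.55 in those labelled flox/flox. Mthfd1l, the mitochondrial formate-producing enzyme, rose by 0.65 log2 units (limma adjusted p = 0.00532). Mat2b, the regulatory subunit of the enzyme that makes S-adenosylmethionine, fell by 0.37 log2 units (limma adjusted p = 0.0449). Mthfd1 and Mtr did not pass (0.48 and 0.33, limma adjusted p 0.0512 and 0.0605). The median of the list was 0.13, and Shmt2 and Mthfd1l passed with any 1 array left out. Mat2b was lost in each of these 6 fits and with median centring, so that 0 of the list were lower there. Of the 6 fits, Shmt1 passed in those without Mx1Cre replicate 1, where Mthfd1 passed too, and without flox/flox replicate 2.

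Of 22 measured 2-oxoglutarate and citrate cycle genes Got1, the cytosolic aspartate aminotransferase, rose by 0.49 log2 units (limma adjusted p = 0.0468) and 0 fell. Over all genes 4.91% passed, so this count is near the background share. Idh3a, the catalytic subunit of the NAD-dependent isocitrate dehydrogenase, and Got2 did not pass (0.36 each, with a limma adjusted p of 0.0732 for Idh3a). The median difference of the list was 0.16 log2 units, and 19 of the 22 genes had a positive difference, as had 9294 of all 19937 genes. The call of Got1 was lost without any 1 array other than flox/flox replicate 2, with median centring, with the most variable probe set of each gene, with all probe sets fitted together, with each gene's own variance and at an adjusted p under 0.01.

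**Figure D4:**
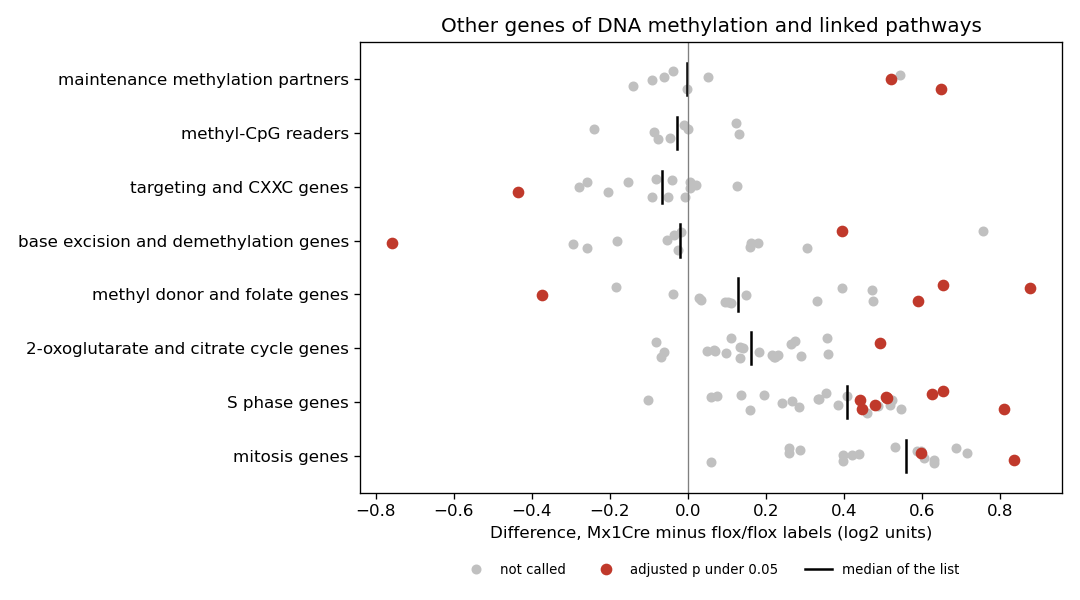
Differences between the arrays labelled Mx1Cre and those labelled flox/flox (log2 units, horizontal axis) for the genes of 8 lists, each point a gene. Red points passed an adjusted p of 0.05, grey points did not, and black bars are list medians. The medians of the S phase and mitosis lists (0.41 and 0.56) lie right of those of the methyl-CpG reader and targeting lists (-0.03 and -0.07).

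The array values most like those of Uhrf1, by the root mean square difference of values centred on each gene's mean over the 6 arrays, were those of Snd1 (0.018 log2 units), Slc25a12 (0.038) and Polr1a (0.038). The nearest to Dnmt1 were Nup107 (0.040), Bace1 (0.041) and Abcc4 (0.042). Genes with provisional names were left out of this search, and the likeness is a description over 6 arrays.

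**Figure D5:**
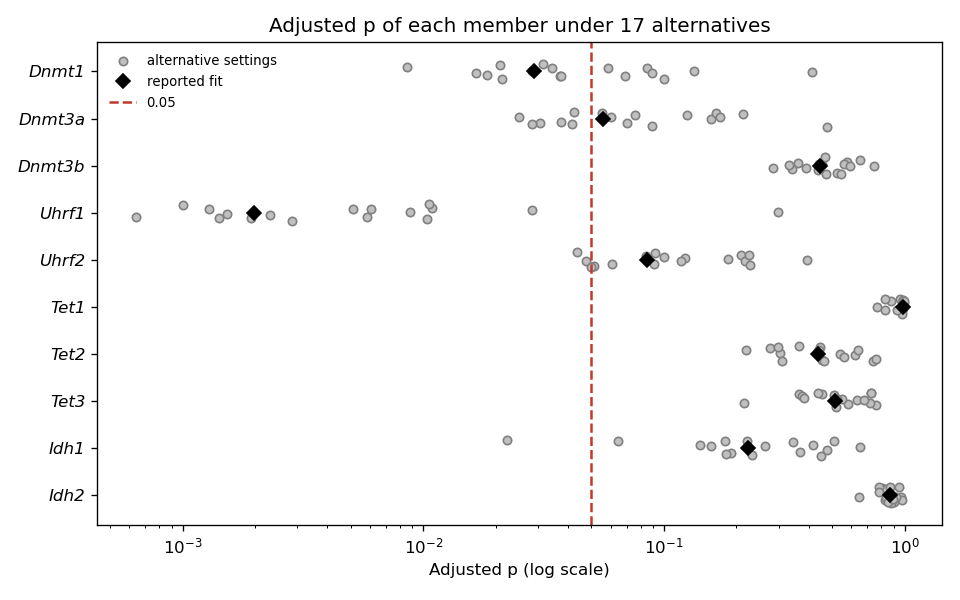
Adjusted p (log scale, horizontal axis) of each gene in the reported limma fit (diamonds) and in 17 alternatives (grey points), with the threshold of 0.05 as a dashed line. Uhrf1 passed in 16 of the 17, Dnmt1 in 10, Dnmt3a in 6, Uhrf2 in 3 and Idh1 in 1, while Dnmt3b, Tet1, Tet2, Tet3 and Idh2 passed in 0.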

How the data were processed

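Total RNA (20 ng per sample) of 6 sorted PreGM samples was amplified and hybridised to 1 array each, per the labels' protocols. The authors deposited log2 expression values per probe set, made with RMA and the affy software per the submitters' processing notes, with versions not given in the sources used here. RMA corrects background, normalizes across arrays and summarises probes, and it tends to understate folds of dim genes. Array medians lay between 6.43 and 6.55, and the design text gives separate mice as replicates. Array number limits the precision.

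Of 34760 probe sets, 21640 carried 1 symbol in the platform annotation, which is of older date, and RefSeq's gene table, matched by Entrez number, changed 0 of them. For the 954 genes with several probe sets, the one with the highest mean stood for the gene. Differences (Mx1Cre minus flox/flox labels) came from limma (version 3.58.1, R 4.3.3; lmFit, eBayes), fitted over 19937 genes with Benjamini-Hochberg adjustment, and the fit was checked on simulated data. Contrasts between paralogues used exact permutation over arrays. The members, lists and tests were chosen with earlier results of these data known. Named were all members, called list genes (the 3 highest and lowest where over 6 passed), up to 2 uncalled per list and the 3 nearest profiles.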

Additional observations from a re-analysis of the deposited data

How the results depend on the processing

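The count of members that passed, 2, ranged from 1 to 2 when 1 array was left out, with Idh1 in place of Dnmt1 without Mx1Cre replicate 1 and Dnmt3a in its place without Mx1Cre replicate 2. It was 4, with Dnmt3a and Uhrf2 passing as lower, among genes above the median level, with an intensity trend and robust prior, with array weights and at an adjusted p under 0.1. It was 1 at 0.01 and 1 with all probe sets fitted together, and Dnmt3a also passed with cyclic loess and among genes above the lower quartile. With each gene's own variance (Welch), 0 members, 0 of all genes and 0 pathway list members passed, against 3, 2124 and 24 at an unadjusted p under 0.05. Over all genes 979 passed (4.91%), 538 to 785 without 1 array and 244 with all probe sets fitted. At an adjusted p under 0.01, 389 passed (1.95%), and under 0.1, 1466 passed (7.35%). The count over all genes also rose in the settings where the count of members rose. It was 1065 among genes above the median level and 1095 above the lower quartile, where fewer genes were tested. It was 1153 with an intensity trend and robust prior, 1389 with array weights and 1129 with cyclic loess. The 8 pathway lists held 9, 8, 14, 14, 16, 22, 27 and 18 measured genes. Of the pathway lists 20 genes passed, 4 to 17 without 1 array, 3 with all probe sets (Cdca7, Gadd45a and Shmt2), 4 at 0.01 and 31 at 0.1. These changes of count come with fewer arrays, more or fewer rows tested, another variance estimate, array weights, another normalization or another threshold. Their cause was not tested.

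Between arrays of the same replicate number, deviations from the group means correlated at 0.19, 0.05 and 0.17. Whether the numbers pair the samples was not tested. With the replicate number as a block, 2 members, 1089 genes and 26 pathway list genes passed, against 2, 979 and 20 without it. The sign turned for Tet1, between -0.0785 and 0.0945 without 1 array (-0.0231, -0.0366 and -0.0785 without Mx1Cre replicates 2 and 3 and flox/flox replicate 1) and -0.0406 with its most variable probe set, and for Idh2, between -0.139 and 0.0139. Relative to the S phase list, Tet1, Tet2 and Tet3 stood at -0.37, -0.18 and -0.20. Among the paralogue contrasts, Dnmt3a minus Dnmt3b ran from -0.43 to -0.13 without 1 array. Tet3 minus Tet1 ran from -0.0090 to 0.30, and Tet3 minus Tet2 from -0.13 to 0.06, so both turned sign. Tet3 minus Tet2 was also 0.02 with the most variable probe set, and Tet3 minus Tet1 had exact permutation p = 0.1 with that probe set or the mean of probe sets. Uhrf1 minus Uhrf2, Idh1 minus Idh2 and Tet2 minus Tet1 were positive in each alternative tried. Signs of the other 8 members were the same in all 17 alternatives. The number of arrays limits what can be seen of the TET genes.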
